A study of Mus musculus with 2 samples.

Results

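The MAP kinase cascade genes and the dual-specificity phosphatase (DUSP) genes were examined in regulatory T (Treg) cells of mice without the microRNA miR-125a and of wild-type (WT) mice. The members were the genes of the array annotation whose symbol starts with Mapk, Map2k, Map3k, Map4k or Dusp and that were named alone by a probe set. This gave 71 genes, measured by 157 probe sets, of 18193 genes and 34945 probe sets in all. A gene with several probe sets was represented by the one whose signal, averaged over both arrays, was highest. Within this rule genes were thus taken by name, and measured signal decided only which probe set stood for each. The members as a group were chosen with earlier results of these data known.

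The miR-125a KO pool was RNA combined in equal amounts from CD4+CD25hi splenic Treg cells of several miR-125a-deficient mice, and the WT pool was made the same way from WT littermates, all 6 to 8 weeks old. Cells were enriched for CD4 with magnetic beads and sorted by flow cytometry, and neither pool had any other treatment in the labels. The labels give neither the number of mice per pool nor the strain. Each pool was hybridised to 1 Affymetrix Mouse Genome 430 2.0 array, so every difference below compares 2 RNA pools, has no replicate check and has no p-value.

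MAP kinases are the last step of a relay in which a MAP4 kinase or a small GTPase activates a MAP3 kinase, which phosphorylates a MAP2 kinase, which in turn phosphorylates a MAP kinase on a threonine and a tyrosine. The ERK branch carries T cell receptor and growth signals, and the JNK and p38 branches carry stress and cytokine signals. Dual-specificity phosphatases remove both phosphates and so end the signal, and several of them are themselves induced by the kinases they switch off. In T cells these routes govern activation, cytokine production and survival, and these arrays measured their transcripts, not phosphorylation.

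The sequence absent from the miR-125a KO mice is shown beside that of its closest relative, because a relative with the same seed is encoded elsewhere in the genome. The seed, bases 2 to 8 of the mature RNA, is in capitals, and both sequences are those of RefSeq on GRCm38.p6. The miR-125a-5p sequence lies on the forward strand at chr17:17830817-17830840, and miR-125b-5p is encoded at chr9:41581940-41581961 and at chr16:77646279-77646300, both on the forward strand.
miR-125a-5p: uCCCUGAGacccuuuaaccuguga
miR-125b-5p: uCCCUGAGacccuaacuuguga
The arrays did not read either microRNA here. Spaca6, the protein-coding neighbour of the miR-125a locus, had 35.5 in the miR-125a KO pool and 5.62 in the WT pool, both too dim to compare, so the deletion was not checked by these values.

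Map3k20 stood apart from the rest of the cascade, and the genes at its centre differed little. Signals are linear MAS5 values, and a log2 ratio is that of the miR-125a KO signal plus 16.3 over the WT signal plus 16.3, so the ratios and folds of dim genes are understated. Of the 71 members, 52 passed the signal minimum of 62.3. At least 1.5-fold higher in the miR-125a KO pool were 5 of these 52, against 5.00% of the 10590 genes past the minimum, and at least 1.5-fold lower were 3, against 5.79% of all genes. In either direction the 8 members made up 15.4%, against 10.8% of all genes. At 2-fold, 1 member was higher, against 1.08% of all genes, and 0 were lower, against 1.20%, or 2.28% of all genes in either direction. The median log2 ratio of the 52 members was -0.05, and that of all genes 0.01. Below 0 were 30 of the members (57.7%), against 49.0% of all genes. The central spread was also alike, with the 10th and 90th percentiles at -0.42 and 0.51 for the members and at -0.44 and 0.43 for all genes. The number at least 1.5-fold higher was 2 with a pseudocount at the median signal and 1 with a stricter signal filter.

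**Figure D1:**
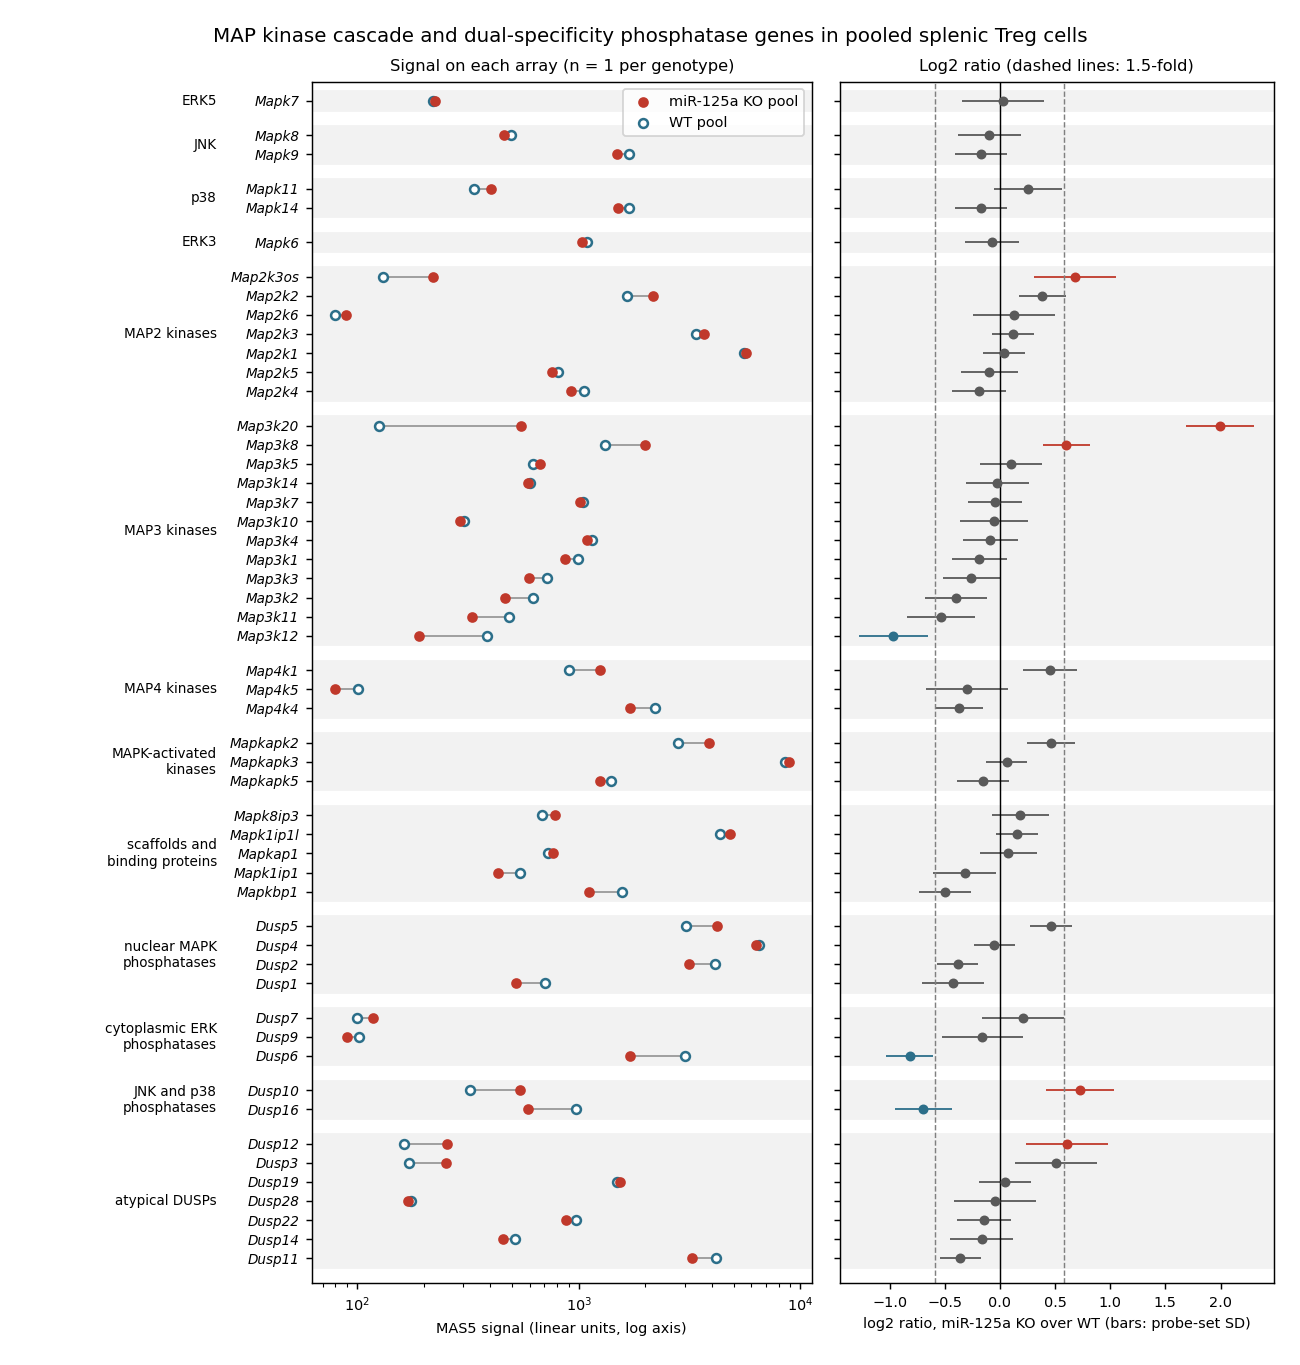
Left, MAS5 signal (linear units, log axis) of the 52 members past the signal minimum in the miR-125a KO pool (filled) and the WT pool (open), 1 array each, grouped by role. Right, log2 ratio of miR-125a KO over WT for the same genes, with bars for the probe-set SD of the signal range and dashed lines at 1.5-fold. Map3k20 lies farthest to the right, at 2.00, and Map3k12 farthest to the left, at -0.96.

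The error given as "probe-set SD" is the only repeat measure these arrays offer. It is the SD of the log2 ratio between probe sets of a gene, from 5037 genes with several probe sets past the minimum, for the group of 10 signal groups in which the gene falls. It was 0.37 in the dimmest group and 0.18 in the brightest, and it leaves out differences between mice.

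The MAP kinases themselves were close to equal in both pools. Mapk8, which encodes JNK1, had a signal of 462 in the miR-125a KO pool and 494 in the WT pool, and Mapk9, which encodes JNK2, had 1490 in the miR-125a KO pool and 1679 in the WT pool. The log2 ratio was -0.09 for Mapk8 (probe-set SD 0.28) and -0.17 for Mapk9 (probe-set SD 0.24). All 3 probe sets of Mapk9 were lower in the miR-125a KO pool, with log2 ratios from -0.51 to -0.17. Mapk14, which encodes p38 alpha, had 1499 in the miR-125a KO pool and 1687 in the WT pool, a log2 ratio of -0.17 (probe-set SD 0.24). Mapk11, which encodes p38 beta, lay on the other side of 0, at 404 in the miR-125a KO pool and 335 in the WT pool, and its log2 ratio was 0.26 (probe-set SD 0.31). Mapk7, which encodes ERK5, was at 225 in the miR-125a KO pool and 220 in the WT pool. Mapk6, which encodes the atypical kinase ERK3, was at 1034 in the miR-125a KO pool and 1086 in the WT pool. Each of these 6 differences was under 1.5-fold and, for the probe set used, smaller than its probe-set SD. Mapk10, the JNK gene typical of neurons, and the kinase genes Mapk12, Mapk13, Mapk4 and Mapk15 were below the minimum on average.

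The MAP2 kinases, the direct activators of the MAP kinases, also differed little. Map2k1, which encodes MEK1 of the ERK branch, had a signal of 5706 in the miR-125a KO pool and 5555 in the WT pool, a log2 ratio of 0.04 (probe-set SD 0.19). Map2k2, which encodes MEK2 of the same branch, was at 2154 in the miR-125a KO pool and 1647 in the WT pool, a log2 ratio of 0.38 (probe-set SD 0.21), while its dimmer probe set had -0.14. Map2k3, an activator of p38, was at 3678 in the miR-125a KO pool and 3380 in the WT pool, and Map2k4, an activator of JNK, at 922 in the miR-125a KO pool and 1055 in the WT pool. Their log2 ratios were 0.12 and -0.19, within their probe-set SDs of 0.19 and 0.25. Map2k5, the activator of ERK5, had a log2 ratio of -0.10, and its 4 probe sets ran from -0.35 to 0.45. Map2k6, the other activator of p38, was near the signal minimum at 88.9 in the miR-125a KO pool and 79.9 in the WT pool. The symbol rule also took in Map2k3os, a long noncoding RNA annotated opposite Map2k3 and no kinase. It was 1.60-fold higher, at 220 in the miR-125a KO pool and 131 in the WT pool, and its only probe set gave a log2 ratio of 0.68 (probe-set SD 0.37), and it lay under 1.5-fold with a pseudocount at the median signal, at 0.54.

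Among the MAP3 kinases, where stress and receptor signals enter the cascade, the differences were wider. Map3k20 encodes ZAK, a kinase that senses stalled ribosomes and activates the p38 and JNK branches. Its signal was 547 in the miR-125a KO pool and 125 in the WT pool. The log2 ratio was 2.00 (probe-set SD 0.31), a 3.99-fold difference and the highest of the 52 members. A second probe set was at 214 in the miR-125a KO pool and 34.6 in the WT pool, a log2 ratio of 2.18. It passed the minimum only through the miR-125a KO pool, so it had to lie high there and is no second support. Its other probe sets were dim in both pools and read no such difference, at 26.0 and 27.8 in the miR-125a KO pool and at 33.9 and 22.9 in the WT pool. Across the alternative settings in which it could be read, the log2 ratio of Map3k20 ran from 1.70 to 2.12.

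Map3k8, which encodes the kinase Tpl2 that links Toll-like and TNF receptors to the ERK branch, was 1.52-fold higher, at 1992 in the miR-125a KO pool and 1307 in the WT pool. Its log2 ratio was 0.60 (probe-set SD 0.21) from 1 probe set. With a pseudocount at the median signal it was 0.58, just under 1.5-fold. Map3k12, a JNK activator known from neurons as DLK, was 1.95-fold lower, at 190 in the miR-125a KO pool and 386 in the WT pool. Its log2 ratio was -0.96 (probe-set SD 0.31). Another probe set past the minimum, at 256 in the miR-125a KO pool and 303 in the WT pool, had -0.23, which gave a mean of -0.60. The difference for Map3k12 thus rested mainly on 1 probe set.

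The remaining 9 MAP3 kinases past the minimum lay within 1.5-fold, and 8 of them were below 0, against 49.0% of all genes. Map3k11, a mixed-lineage kinase upstream of JNK, was nearest to 1.5-fold, at 329 in the miR-125a KO pool and 484 in the WT pool and its log2 ratio was -0.54 (probe-set SD 0.31). Map3k2 had a log2 ratio of -0.40, Map3k3 -0.26 and Map3k1 -0.19. Map3k7, which encodes TAK1, a kinase shared by the T cell receptor, IL-1 and TNF pathways, was at 1014 in the miR-125a KO pool and 1046 in the WT pool, with a log2 ratio of -0.04. Its 5 probe sets past the minimum ran from -0.64 to 0.78, so they did not give 1 direction. Map3k14, the kinase of the noncanonical NF-kappaB pathway, had a log2 ratio of -0.02, Map3k4, a partner of the Gadd45 proteins, -0.09, and Map3k5, the redox-sensitive kinase ASK1, 0.10. The probe sets of these genes also differed in sign, from -0.02 to 0.10 for Map3k14, from -0.53 to 0.27 for Map3k4 and from -0.47 to 0.10 for Map3k5.

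**Figure D2:**
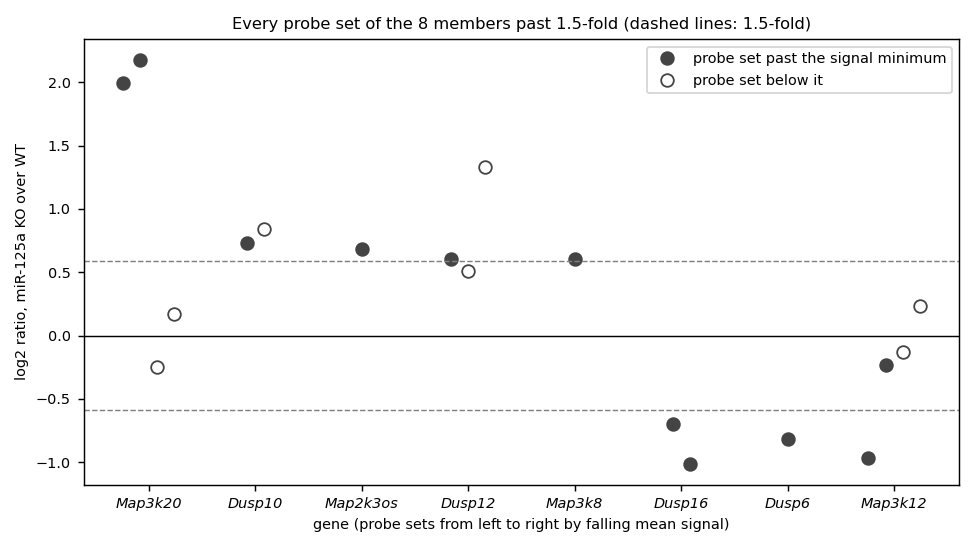
Log2 ratio of miR-125a KO over WT for every probe set of the 8 members at least 1.5-fold apart, ordered by the value of the probe set used, which is the leftmost of each gene. Filled circles are probe sets past the signal minimum, open circles those below it, and dashed lines mark 1.5-fold. The filled circles of Map3k20 are at 2.00 and 2.18, the second from a probe set that passed only through its miR-125a KO signal, and those of Map3k12 are spread from -0.96 to -0.23.

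At the top of the cascade, 3 MAP4 kinases were read and none reached 1.5-fold. Map4k1 encodes HPK1, which damps T cell receptor signalling in T cells, and it had 1248 in the miR-125a KO pool and 906 in the WT pool. Its log2 ratio was 0.45 (probe-set SD 0.25). Map4k4 went the other way, at 1707 in the miR-125a KO pool and 2214 in the WT pool, a log2 ratio of -0.37 (probe-set SD 0.21), and its 4 probe sets past the minimum ran from -0.52 to -0.22. Map4k5 had -0.30, at 79.4 in the miR-125a KO pool and 101 in the WT pool.

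Of the kinases that MAP kinases activate, Mapkapk2 was 1.38-fold higher. It encodes MK2, which acts below p38 and stabilises cytokine messenger RNAs. Its signal was 3889 in the miR-125a KO pool and 2816 in the WT pool, and the log2 ratio was 0.46 (probe-set SD 0.22). Its relatives Mapkapk3, at 8866 in the miR-125a KO pool and 8495 in the WT pool, and Mapkapk5, at 1252 in the miR-125a KO pool and 1392 in the WT pool, had log2 ratios of 0.06 and -0.15.

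The scaffolds and binding proteins lay within 1.5-fold. Mapkbp1, a binding partner of JNK, was the lowest, at 1109 in the miR-125a KO pool and 1569 in the WT pool. Its log2 ratio was -0.49 (probe-set SD 0.24), and its second probe set had -0.62. Mapk8ip3, a JNK scaffold that also links cargo to kinesin, had the highest ratio of the group at 0.19, but its probe sets ran from -0.79 to 0.19. Mapk1ip1 had a log2 ratio of -0.32. Mapk1ip1l, at 4835 in the miR-125a KO pool and 4335 in the WT pool, had 0.16, and its second probe set had -0.14. Mapkap1, named for MAP kinase but encoding the mTORC2 subunit Sin1, had 0.07. The JNK scaffold genes Mapk8ip1 and Mapk8ip2 were below the minimum on average over both arrays, at 66.6 and 74.8 in the miR-125a KO pool and at 15.9 and 10.7 in the WT pool.

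The phosphatases went both ways, and the members of 1 class often parted. Of 24 DUSP genes, 16 passed the minimum, 10 of these were below 0 (62.5%, against 49.0% of all genes), and their median log2 ratio was -0.10. Of the 9 that belong to the classes acting on MAP kinases, 1 was higher and 2 were lower by 1.5-fold or more, against 5.00% and 5.79% of all genes, and with 9 genes these counts are a description.

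Dusp6, the cytoplasmic phosphatase of ERK that ERK signalling itself induces, was 1.76-fold lower, at 1707 in the miR-125a KO pool and 3022 in the WT pool. Its log2 ratio was -0.82 (probe-set SD 0.22). The gene was read by 1 probe set, and the ratio ran from -0.82 to -0.78 over the alternative settings. Of the other ERK phosphatases of the cytoplasm, Dusp7 was at 119 in the miR-125a KO pool and 100.2 in the WT pool with a log2 ratio of 0.21, and Dusp9 at 90.1 in the miR-125a KO pool and 102 in the WT pool with -0.16, both dim and within their probe-set SD of 0.37.

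Of the phosphatases directed at JNK and p38, Dusp10 was 1.66-fold higher and Dusp16 1.62-fold lower. Dusp10, which restrains JNK and p38 in T cells, had 545 in the miR-125a KO pool and 322 in the WT pool. Its log2 ratio was 0.73 (probe-set SD 0.31), and its dim second probe set had 0.84, at 29.4 in the miR-125a KO pool and 9.17 in the WT pool. Dusp16, which acts mainly on JNK, had 592 in the miR-125a KO pool and 970 in the WT pool, a log2 ratio of -0.70 (probe-set SD 0.26). Its second probe set was at 43.0 in the miR-125a KO pool and 104 in the WT pool with a log2 ratio of -1.02. That probe set passed the minimum only through the WT pool, so it had to lie low in the miR-125a KO pool and is no second support. Dusp8, the third of this class, was below the minimum, at 32.0 in the miR-125a KO pool and 32.7 in the WT pool.

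The nuclear phosphatases that T cell activation induces stayed under 1.5-fold. Dusp1 was at 523 in the miR-125a KO pool and 708 in the WT pool, a log2 ratio of -0.42 (probe-set SD 0.28). Dusp2, which is abundant in activated lymphocytes, was at 3151 in the miR-125a KO pool and 4116 in the WT pool, a log2 ratio of -0.38 (probe-set SD 0.19). Dusp5, an ERK phosphatase induced by IL-2 in T cells, lay on the opposite side, at 4197 in the miR-125a KO pool and 3045 in the WT pool, a log2 ratio of 0.46 (probe-set SD 0.19). Dusp4, at 6277 in the miR-125a KO pool and 6495 in the WT pool, had a log2 ratio of -0.05. Thus 2 of the 4 were lower and 1 higher by more than the probe-set SD, with 1 close to equal, and each was read by 1 probe set.

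The atypical DUSPs, small phosphatases with varied substrates, included 1 gene at 1.5-fold. Dusp12 was at 256 in the miR-125a KO pool and 162 in the WT pool, a log2 ratio of 0.61 (probe-set SD 0.37), and lay under 1.5-fold with a pseudocount at the median signal, at 0.50. Dusp3, a phosphatase of ERK and JNK, was near it with 252 in the miR-125a KO pool and 172 in the WT pool, a log2 ratio of 0.51, while its second probe set had 0.13. Dusp11, which removes phosphates from RNA ends and is no MAP kinase phosphatase, was the lowest of the group at -0.36, with 3259 in the miR-125a KO pool and 4181 in the WT pool, and its second probe set had -0.02. Dusp22 and Dusp14, both of which restrain T cell receptor signalling, had log2 ratios of -0.15 and -0.16. Dusp19 and Dusp28 had 0.04 and -0.04.

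The 19 members below the signal minimum on average over both arrays could not be compared, since MAS5 values at this level vary widely. They included 8 DUSPs, among them Dusp13, Dusp23 and Dusp26, and 4 MAP3 kinases, Map3k6, Map3k9, Map3k21 and Map3k7cl. Their signals ran from 1.24, for Dusp23 in the miR-125a KO pool, to 74.8, for Mapk8ip2 in the same pool.

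Agreement between probe sets of a gene set the firmness of these values. Of the 52 members, 30 had more than 1 probe set past the minimum, and in 19 of the 30 all of them gave the same sign. In 11 they did not, and the median distance between the highest and the lowest log2 ratio of a gene was 0.28. The other 22 members, with Dusp6, Dusp10 and Map3k8 among them, had 1 such probe set each. Among the 19 with the same sign were Map3k20 and Dusp16. Their second probe sets passed the minimum through 1 pool only and had to take that side, so their agreement adds no support. The share with the same sign was not counted over all genes, so 19 of 30 is a description only.

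The promoters of the members on which the results turn are shown next, with those of the 2 DUSP genes in which a searched motif was found. Each is the RefSeq sequence (GRCm38.p6) of the 250 bases before the start of the gene, 5′ to 3′ on the strand of the gene, and capitals mark a motif match. Map3k20 has 2 annotated starts, of which the upstream one is shown, from chr2:72285387-72285636 on the forward strand. That of Dusp6 is chr10:99262981-99263230 on the forward strand, that of Dusp1 chr17:26508473-26508722 on the reverse strand, and that of Dusp5 chr19:53528895-53529144 on the forward strand.
Map3k20: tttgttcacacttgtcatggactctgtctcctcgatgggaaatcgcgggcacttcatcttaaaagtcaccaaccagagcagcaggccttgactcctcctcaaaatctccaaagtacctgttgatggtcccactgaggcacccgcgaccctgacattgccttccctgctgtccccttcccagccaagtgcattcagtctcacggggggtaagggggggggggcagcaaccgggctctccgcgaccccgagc
Dusp6: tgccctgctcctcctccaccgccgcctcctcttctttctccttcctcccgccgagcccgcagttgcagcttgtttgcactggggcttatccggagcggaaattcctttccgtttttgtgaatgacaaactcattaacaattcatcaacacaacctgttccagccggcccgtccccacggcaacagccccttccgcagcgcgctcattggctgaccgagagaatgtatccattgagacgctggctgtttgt
Dusp1: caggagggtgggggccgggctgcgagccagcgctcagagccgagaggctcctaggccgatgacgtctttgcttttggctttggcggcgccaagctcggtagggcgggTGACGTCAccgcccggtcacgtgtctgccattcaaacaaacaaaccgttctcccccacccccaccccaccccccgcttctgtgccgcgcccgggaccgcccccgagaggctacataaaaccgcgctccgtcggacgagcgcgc
Dusp5: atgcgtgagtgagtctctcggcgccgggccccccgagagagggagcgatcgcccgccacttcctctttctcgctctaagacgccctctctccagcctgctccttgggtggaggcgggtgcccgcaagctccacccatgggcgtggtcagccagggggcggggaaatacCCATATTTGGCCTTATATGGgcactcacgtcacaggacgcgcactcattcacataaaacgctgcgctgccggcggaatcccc
The cAMP response element was searched as TGACGTCA, the AP-1 site as TGANTCA, the EGR site as GCGTGGGCG, and the serum response CArG box by its usual form, each on both strands. RefSeq promoters were found for 57 of the 71 members. Of the 52 past the minimum, 45 had one, with 57 windows in all because some have several starts. The response element was found in 1 of these 57 windows, that of Dusp1, against 1.55% of 32851 promoters. CArG boxes were found in 1, that of Dusp5, which holds 2 side by side, against 1.47% of promoters. The AP-1 site was found in 2, those of Map2k6 and Map3k10, against 6.75%, and the EGR site in 0, against 0.536%. None of these letters occurred in the windows of Map3k20, Map3k12, Dusp6, Dusp10, Dusp12, Dusp16 and Map2k3os, which are 7 of the 8 members at least 1.5-fold apart. Map3k8, the other of the 8, was not among the members with a match either, but its window was not read out singly.

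Other genes of the pathway were read from lists, beginning with the feedback inhibitors of ERK. Of 6 Sprouty, Spred and related inhibitors past the minimum, 4 were below 0, against 49.0% of all genes, and the median log2 ratio was -0.38, against 0.01 for all genes. At least 1.5-fold lower were 2, against 5.79% of all genes, and 0 were higher by as much, against 5.00%, in a list too short to read a direction from. Spry1, which blocks Ras activation after receptor signals, was at 523 in the miR-125a KO pool and 932 in the WT pool, a log2 ratio of -0.81 (probe-set SD 0.26). Spred2, which holds back RAF, was at 2697 in the miR-125a KO pool and 4362 in the WT pool, a log2 ratio of -0.69 (probe-set SD 0.19), and its 3 other probe sets past the minimum ran from -0.94 to -0.60. Spry2 was dim and on the other side, at 122 in the miR-125a KO pool and 83.2 in the WT pool with a log2 ratio of 0.47, and Pebp1, an inhibitor of RAF, had 0.19.

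Of 13 other phosphatases and ERK target genes, 1 was higher and 2 were lower by 1.5-fold or more, against 5.00% and 5.79% of all genes. Their median was -0.12. Phlda1, a gene that ERK signalling induces, was at 936 in the miR-125a KO pool and 1760 in the WT pool, a log2 ratio of -0.90 (probe-set SD 0.24). Zfp36, which encodes a protein that speeds the decay of cytokine messenger RNAs, was at 789 in the miR-125a KO pool and 1245 in the WT pool, a log2 ratio of -0.65. Etv5 was at 352 in the miR-125a KO pool and 252 in the WT pool with a log2 ratio of 0.46. Ccnd1, which encodes cyclin D1, was at 165 in the miR-125a KO pool and 103 in the WT pool with 0.60, and Egr1 at 8131 in the miR-125a KO pool and 8939 in the WT pool with -0.14. The second probe set of Ccnd1 past the minimum had 0.26.

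Upstream of ERK, Ras, RAF and adaptor genes were close to equal in both pools. Of 18 past the minimum, with a median of 0.02, 0 were higher and 1 was lower by 1.5-fold or more, against 5.00% and 5.79% of all genes. That gene was Nf1, a brake on Ras, near the minimum at 70.2 in the miR-125a KO pool and 115 in the WT pool, with a log2 ratio of -0.60 that lay under 1.5-fold after each of the other array scalings. Sos2, an exchange factor for Ras, had -0.50, at 1114 in the miR-125a KO pool and 1579 in the WT pool. Ksr1, a scaffold of the ERK branch, had 0.40 and Lamtor3 0.33, but the second probe set of Ksr1, past the minimum only through the WT pool, had -0.69, and the mean over them was -0.14.

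Of 19 transcription factors that MAP kinases phosphorylate, 15 were below 0 (78.9%, against 49.0% of all genes), with a median of -0.11. At least 1.5-fold higher was 1 and lower 1, against 5.00% and 5.79% of all genes. Jun, the AP-1 subunit activated by JNK, was at 2868 in the miR-125a KO pool and 4834 in the WT pool, a log2 ratio of -0.75 (probe-set SD 0.19), and its second probe set had -0.86. Atf7 was at 123 in the miR-125a KO pool and 57.8 in the WT pool, a log2 ratio of 0.91 (probe-set SD 0.37). It was the 1 factor counted as higher and passed the minimum only through the miR-125a KO pool. Ddit3 had -0.51 and Srf, the factor that binds CArG boxes, 0.40, with a second probe set of Srf at 0.05. Among 4 kinases below the MAP kinases, 0 reached 1.5-fold, against 10.8% of all genes in either direction. Rps6ka3 was lowest at -0.43, Mknk2 next at 0.04, and Mknk1 and Rps6ka5 were at 0.09 and 0.17.

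In the stress branch, Gadd45a and Gadd45b had the highest ratios. Of 13 adaptors and Gadd45 genes, 2 were higher and 0 lower by 1.5-fold or more, against 5.00% and 5.79% of all genes, with a median of -0.04. Gadd45 proteins bind and activate the kinase encoded by Map3k4. Gadd45b was at 1977 in the miR-125a KO pool and 1188 in the WT pool, a log2 ratio of 0.73 (probe-set SD 0.24), and its other probe sets had 0.83 and 0.18. Gadd45a had a log2 ratio of 1.02 from 1 probe set, at 476 in the miR-125a KO pool and 227 in the WT pool, whereas Gadd45g was at 3608 in the miR-125a KO pool and 3453 in the WT pool with 0.06. Traf2, an adaptor of TNF receptors, was next to Gadd45b, at 887 in the miR-125a KO pool and 654 in the WT pool with a log2 ratio of 0.43. Tab3 and Traf6, adaptors of TAK1 signalling, had -0.40 and -0.25.

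**Figure D3:**
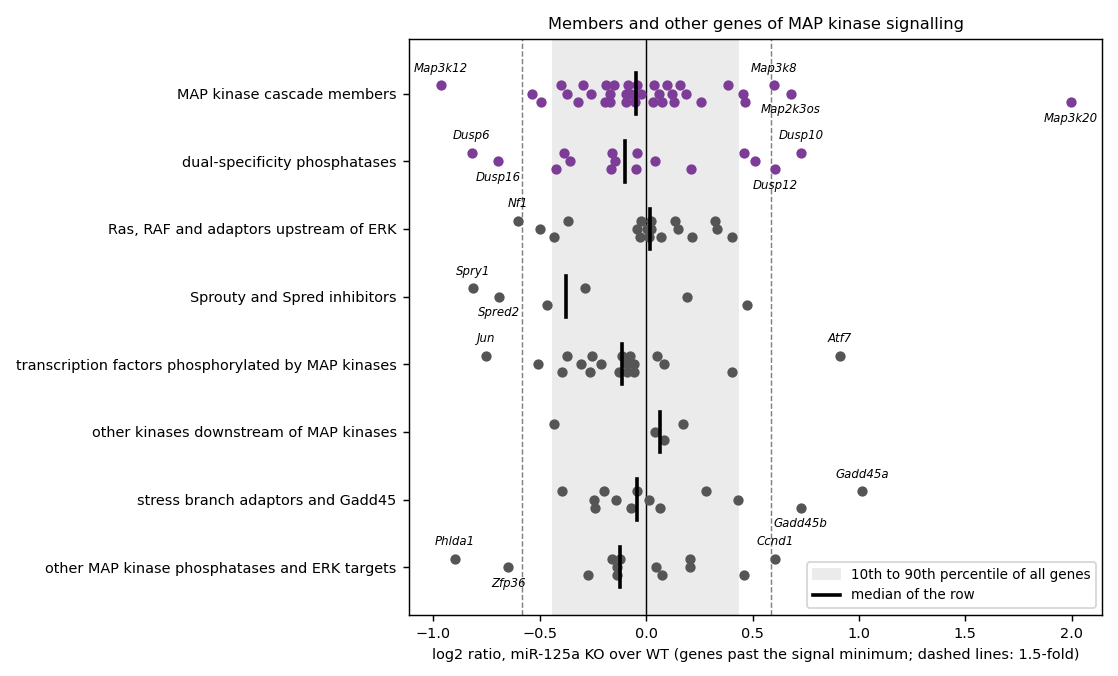
Log2 ratio of miR-125a KO over WT for the members (purple, upper rows) and for 6 lists of other MAP kinase signalling genes (grey), 1 point per gene past the signal minimum, with the median of each row as a black bar. The shaded band runs from the 10th to the 90th percentile of all genes, -0.44 to 0.43, and dashed lines mark 1.5-fold. Map3k20 lies farthest from the band, at 2.00, and of the 8 rows the Sprouty and Spred row has the lowest median, -0.38, with 2 of its 6 genes in the band.

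Cell identity was read from markers beside these values. Of 10 Treg and T cell genes, 9 lay within 1.5-fold, against 89.2% of all genes. Their summed signals were 94748 in the miR-125a KO pool and 93862 in the WT pool over all 10. Cd4 and Il2ra, the 2 sort markers, had log2 ratios of -0.15 and 0.27. Foxp3, the factor that defines Treg cells, was at 694 in the miR-125a KO pool and 1631 in the WT pool, a log2 ratio of -1.21. Summed signals of markers of other cells rested on 1 bright gene in each of the lymphocyte lists. They were 6067 in the miR-125a KO pool and 9003 in the WT pool over 6 CD8 T and NK cell genes, most of it Klrd1 at 5065 in the miR-125a KO pool and 7919 in the WT pool. Without Klrd1 the other 5 summed to 1001 in the miR-125a KO pool and 1085 in the WT pool. Klra7, at 193 in the miR-125a KO pool and 94.3 in the WT pool, and Klre1, at 163 in the miR-125a KO pool and 104 in the WT pool, were higher in the miR-125a KO pool, with log2 ratios of 0.92 and 0.58. Over 7 B cell genes they summed to 2149 in the miR-125a KO pool and 3797 in the WT pool, most of it Ighm at 1754 in the miR-125a KO pool and 3403 in the WT pool, with Cd79a, Ms4a1 and Pax5 below the signal minimum. Without Ighm the other 6 summed to 396 in the miR-125a KO pool and 394 in the WT pool, and the mean log2 ratio over the probe sets of Ighm past the minimum was -0.43, against -0.95 for the one used. Over 14 myeloid genes they summed to 611 in the miR-125a KO pool and 904 in the WT pool. Of the 14, 10 were below the minimum, with Lyz2, Cd14, Itgam and Adgre1 among them. The 4 past it, Fcer1g, Cd68, Itgax and Csf1r, summed to 365 in the miR-125a KO pool and 630 in the WT pool. All 4 were below 0, with a median log2 ratio of -0.70, and 3 were at least 1.5-fold lower, against 5.79% of all genes. They were dim (probe-set SD 0.37), and Itgax, at 47.6 in the miR-125a KO pool and 79.7 in the WT pool, passed the minimum only through the WT pool. In pooled RNA, fewer cells that express a gene and less RNA per cell cannot be told apart, and the part of these markers in the values of Dusp6, Dusp16 or any other member was not tested.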

How the data were processed

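Per the labels, total RNA of sorted Treg cells was pooled per genotype, 6 ug was labelled with biotin, and each pool was read on 1 array. The authors deposited log2 values for 45101 probe sets, made with MAS5, per the submitters' processing notes. MAS5 subtracts mismatch signal and scales each array, and the 2% trimmed mean of the linear values was 500.0 on both. No version is given in the sources used here.

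Values were returned to the linear scale. The 64 control probe sets, 932 naming several genes (4 of them a member and another gene) and 9160 unnamed ones were left out. The pseudocount of 16.3 is the 25th percentile of all signals, and the minimum of 62.3 is the median over probe sets of the mean signal. The median signal was 62.2 on the miR-125a KO and 63.8 on the WT array, and log2 signals past the minimum correlated with r = 0.975 across probe sets. All 71 member symbols matched the RefSeq table of GRCm38.p6. With 1 sample per group, genes were counted by fold (1.5 and 2). Signal over background, not depth, limits precision.

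The members and lists were chosen with earlier results of these data known. Named members were those at least 1.5-fold apart and the brightest, highest and lowest of each role; in each list, up to 2 highest and 2 lowest and those at least 1.5-fold apart, with Foxp3, Il2ra, Cd4 and Spaca6. Further genes in the text were picked with their values in view. Alternatives were 3 array scalings (equal medians, quantile, and loess of span 0.3), 2 other pseudocounts (1 and the median signal), 2 other filters (none, and the 75th percentile), averaging the probe sets of a gene, and dropping probe sets that can match several transcripts, with IDs that end in _s_at, _x_at or _a_at. The probe sets left by that last step are called single-transcript probe sets. The scripts were tested on simulated data. Python 3.11.15, numpy 2.4.6, pandas 2.3.3 and statsmodels 0.14.6 were used.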

Additional observations from a re-analysis of the deposited data

How the results depend on the processing

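No paired analysis was possible because each genotype has 1 array. Across the 9 alternatives, no value at least 1.5-fold apart in the reported setting changed sign. Ksr1 (0.40) turned to -0.14 and Mapk8ip3 (0.19) to -0.18 with the mean over probe sets, and to -0.69 and -0.79 with single-transcript probe sets alone. Mapk1ip1l (0.16) turned to -0.14 with single-transcript probe sets alone, Rps6ka5 (0.17) to -0.01 with the mean over probe sets, and Mknk2 (0.04) turned to -0.01 with loess. Of the values of single named genes, 578 moved by less than the probe-set SD and 9 by more, those of Dusp16, Ighm, Ksr1, Map3k12, Mapk1ip1l, Mapk8ip3 and Srf, all when other probe sets were used. The medians that moved by more than 0.26, the median probe-set SD of the members, and the counts that moved by more than 1.5 times were these. Their cause was not tested, beyond the genes that each filter adds or removes. With no filter, the members at least 1.5-fold higher and lower were 11 and 7, those at least 2-fold 6 and 2, and all genes 2141 and 1829 at 1.5-fold and 809 and 580 at 2-fold. With the filter at the 75th percentile, which kept 37 members, the members higher were 1 at 1.5-fold and 0 at 2-fold, and all genes were 196 and 251 at 1.5-fold and 35 and 47 at 2-fold. The median log2 ratio was then -0.70 for the JNK and p38 phosphatases, the value of Dusp16 alone. It was -0.82 for the cytoplasmic ERK phosphatases, the value of Dusp6 alone. For the MAP4 kinases, reduced to Map4k1 and Map4k4, it was 0.042. With a pseudocount at the median signal, 2 members were at least 1.5-fold higher, and all genes at 2-fold were 58 and 57. The members at least 2-fold lower were 1 with a pseudocount of 1 (Map3k12) and 1 with single-transcript probe sets alone (Dusp16, at -1.02, from a probe set past the minimum only through the WT pool). With single-transcript probe sets alone the median was -0.47 for the cytoplasmic ERK phosphatases and -0.32 for the scaffolds.

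In the lists, the Ras and RAF genes at least 1.5-fold lower were 0 with each array scaling, with the median-signal pseudocount and with the stricter filter, and 2 with single-transcript probe sets alone, and 1 was higher with no filter. ERK targets at least 1.5-fold higher were 0 with the median-signal pseudocount, the stricter filter and the mean over probe sets. With single-transcript probe sets alone, which left out Zfp36, 1 was lower. Stress branch genes higher were 1 with the stricter filter and 1 with the mean over probe sets, and transcription factors higher 0 with the stricter filter. CD8 T and NK markers higher were 2 with each scaling and a pseudocount of 1, and 0 with the stricter filter and with single-transcript probe sets alone. Their median was -0.10 with no filter and -0.64, the value of Klrd1 alone, with the stricter one. B cell markers were 2 higher and 2 lower with no filter, and 0 lower with the mean over probe sets and with single-transcript probe sets alone. Under the stricter filter their median was -0.95, the value of Ighm alone. Myeloid markers were 2 higher and 5 lower with no filter (median -0.35) and 0 lower with the stricter one. Treg genes lower were 0 with single-transcript probe sets alone, because the only probe set of Foxp3 was then left out.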
